A study of Mus musculus with 2 samples.

Results

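The 10 genes described here build and feed the major histocompatibility complex (MHC) class I molecule. They are the heavy chain genes H2-K1, H2-D1, H2-Q4, H2-Q6, H2-Q7 and H2-T23, the light chain gene B2m, and the peptide supply genes Tap1, Psmb8 and Psmb9. They were chosen by symbol, and all 10 were found among the 32285 genes counted, each under 1 identifier. The rule uses the names of the genes and no measured value, though the genes were chosen with earlier results of these data known.

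MHC class I molecules carry short peptides from proteins made inside the cell to its surface. The proteasome cuts the peptides, the TAP transporter moves them into the endoplasmic reticulum, and there a heavy chain folds with β2-microglobulin around a peptide. Classical heavy chains show peptides to CD8 T cells, while non-classical ones have few variants and are also read by natural killer (NK) receptors. Interferons raise the genes of the whole pathway, and endothelial cells (EC), which face the blood, are known for high class I levels.

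The cells came from injured mouse carotid arteries, dissociated 18 hours after a temporary ligation, and their RNA was counted at the 3′ end by single-cell sequencing with molecular identifiers (UMIs). The EC-Cx43-KO library held arteries of CDH5 Cre+ Cx43fl/fl mice, in which the endothelial Cdh5 promoter drives Cre against the floxed connexin 43 gene, and the control library held arteries of CDH5 Cre- Cx43fl/fl mice, so that both groups carried the floxed alleles and the injury. The design text calls the knockout inducible but gives no inducing agent, and age, sex and strain are not given in the sources used here. Per the labels' protocol, arteries of 1 condition were pooled before counting, which leaves 1 library per group, no spread between animals and no test between the groups. The labels name whole carotid artery, digested briefly to favour the endothelium.

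The EC-Cx43-KO library had 8315 barcodes and 54392831 UMIs, and the control library had 7298 barcodes and 48862850 UMIs. After filtering, 7236 EC-Cx43-KO cells and 6376 control cells remained, and 17 barcode sequences occurred in both libraries. Cells were assigned to X-like classes from marker genes, and 8 classes had over 100 cells in each library. The defining EC markers were all present in the EC-like class, where the 12 of them summed to 8743 CPM (UMIs of a gene scaled to 1000000 UMIs of the class) in EC-Cx43-KO cells and 8852 CPM in control cells. Gja1, the gene that encodes connexin 43, stood at 36.6 CPM in EC-Cx43-KO EC-like cells and at 24.4 CPM in control EC-like cells. Where the tag lies outside the deleted stretch it is counted whether or not the gene is cut, so the genotype labels were not checked by it. All intervals below are at 95% and cover counting error only.

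Of the 10 genes, 9 lie within 2.037 megabases of chromosome 17 in the GRCm38 annotation, and B2m lies on chromosome 2 from 122147686 to 122153083. H2-K1 runs from 33996017 to 34000347 on the minus strand. Psmb9 (34181987 to 34187764, minus strand), Tap1 (34187553 to 34197225, plus strand) and Psmb8 (34197721 to 34201454, plus strand) follow side by side. The RefSeq starts of Tap1 and Psmb9 point away from each other with 225 bases between them. H2-D1 runs from 35262730 to 35267499, H2-Q4 from 35379617 to 35385290, H2-Q6 from 35424850 to 35430055 and H2-Q7 from 35439155 to 35443773, all on the plus strand. H2-T23 closes the stretch on the minus strand, from 36029773 to 36032855.

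The heavy chain genes other than H2-T23 share an upstream stretch, shown here so that their promoters can be compared. The stretches are from RefSeq promoters of GRCm38.p6, read 5′ to 3′ along each gene, and all lie outside the annotated exons of that gene. Capitals mark matches on either strand. In H2-K1, H2-Q4, H2-Q6 and H2-Q7 they are to a kappa B motif and to GAANNGAAA, a variant of the interferon-stimulated response element. In B2m they are to the core of that element, GAAA and GAAA with any 2 bases between them. Neither the variant nor the core contains the other. H2-D1 holds the kappa B and GAANNGAAA motifs in a stretch that overlaps an annotated exon of the gene, and it is not printed.
H2-K1, chr17:34000421-34000466, minus strand: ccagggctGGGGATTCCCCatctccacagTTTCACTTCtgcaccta
H2-Q4, chr17:35379436-35379480, plus strand: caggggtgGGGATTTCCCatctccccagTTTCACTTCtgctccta
H2-Q6, chr17:35424669-35424714, plus strand: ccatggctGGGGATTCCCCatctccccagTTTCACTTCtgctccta
H2-Q7, chr17:35439014-35439058, plus strand: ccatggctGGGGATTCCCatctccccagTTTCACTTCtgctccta
B2m, chr2:122147540-122147565, plus strand: aagaacatGAAACTGAAAatgggaaa

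The motifs were searched on both strands of each RefSeq promoter window. The kappa B motif of GGGGA, any base and TCCC was held by H2-K1, H2-D1, H2-Q6 and H2-Q7 and by 0.289% of 32851 promoters. Its form with GGGAA in front, which can overlap the first, was held by H2-Q4 and by 0.32% of promoters. GAANNGAAA, which was added after the promoters had been read, was held by the same 5 heavy chain genes and by 6.31% of promoters. The stricter form was held by B2m and H2-T23 and by 2.98% of promoters, and TTCNNNGAA, the gamma-activated site, by Psmb8 and by 7.02%. TGACGNNA, an X2-like motif, was held by H2-Q4, Tap1 and Psmb9 and by 5.66% of promoters, and CCAAT, the Y box, by 9 members and by 33.8%. These are matches of letters, not measured binding.

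The classical genes H2-K1 and H2-D1 gave most heavy chain UMIs in every class. H2-K1 was highest in T/NK-like and EC-like cells. It stood at 1839 CPM in EC-Cx43-KO and 2078 CPM in control T/NK-like cells, and at 1651 CPM in EC-Cx43-KO and 2255 CPM in control EC-like cells. The T/NK-like class and the EC-like class changed places between libraries, and both stood above all other classes in each library. B-like, dendritic-like and monocyte/macrophage-like cells lay together at 822 to 978 CPM in the EC-Cx43-KO library and 929 to 1104 CPM in the control library, with an order that did not hold in both libraries beyond the intervals. Neutrophil-like cells followed at 419 CPM (EC-Cx43-KO) and 482 CPM (control), fibroblast-like cells at 333 CPM (EC-Cx43-KO) and 295 CPM (control), and smooth muscle cell (SMC)-like cells at 173 CPM (EC-Cx43-KO) and 149 CPM (control). Each of these last steps was larger than the counting intervals in both libraries.

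**Figure D1:**
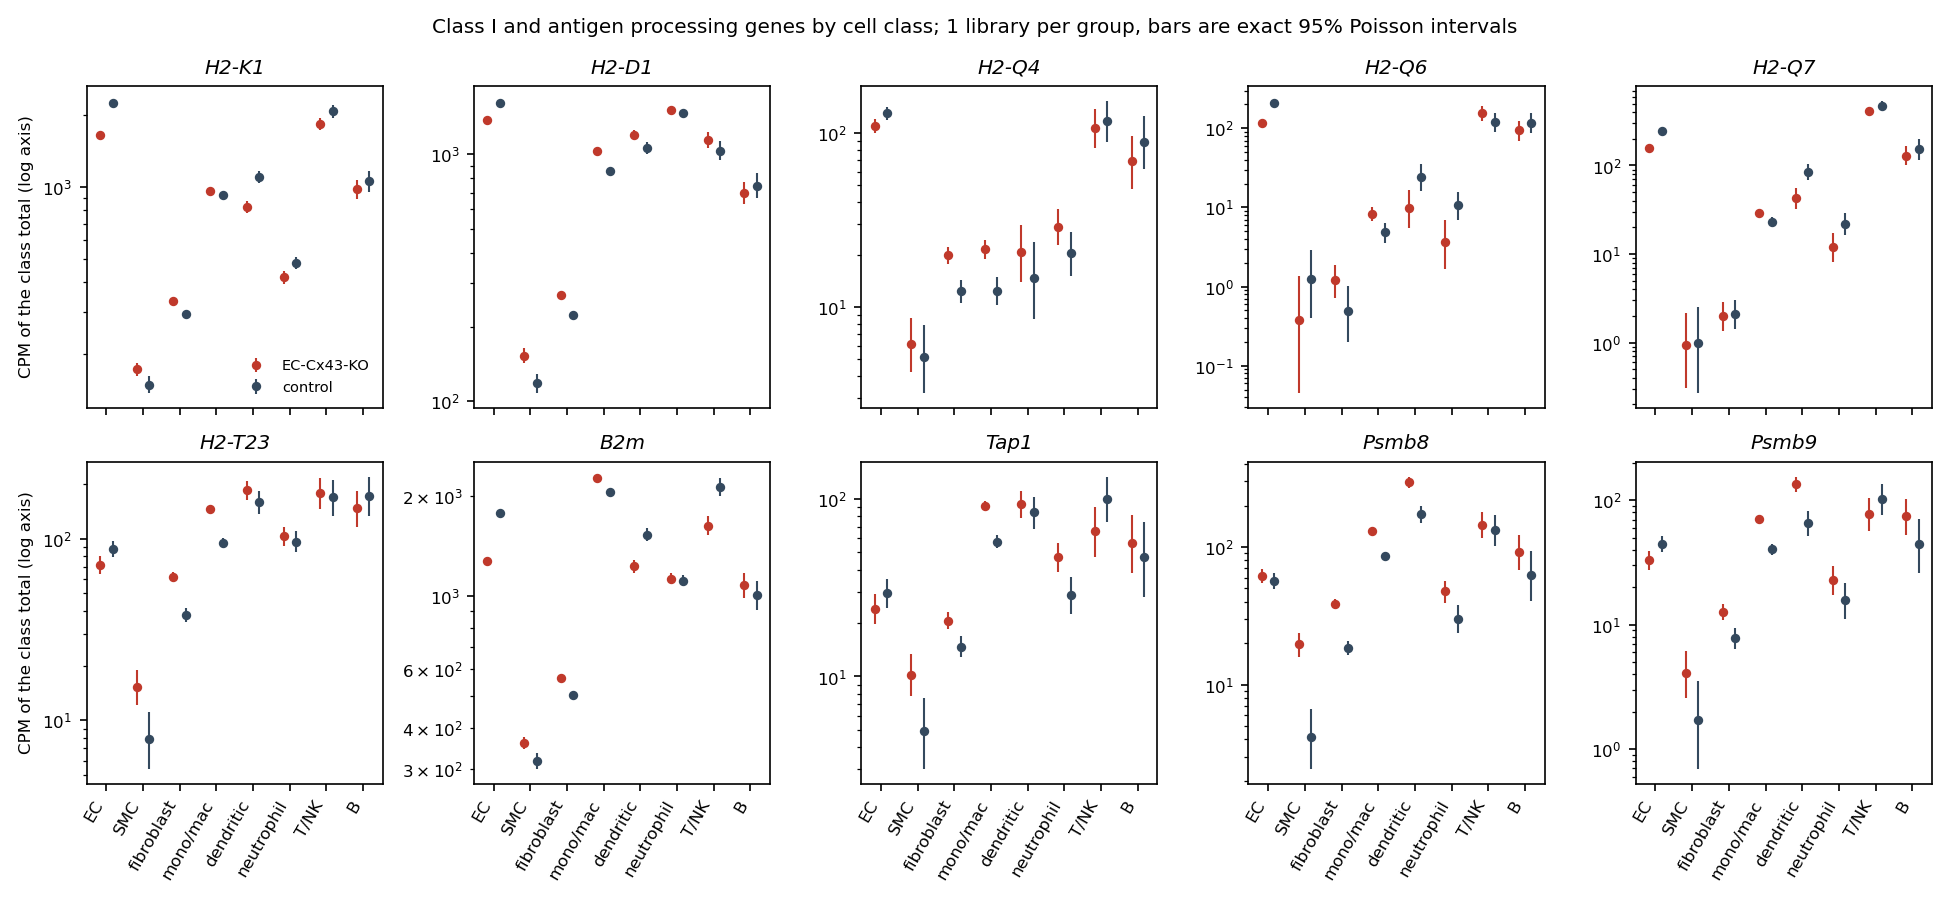
Levels of the 10 genes, as CPM of the class total on a log axis, in 8 cell classes. Red points are the EC-Cx43-KO library, dark points the control library, and bars are exact 95% Poisson intervals; H2-Q6 and H2-Q7 span the widest range of classes, and SMC-like and fibroblast-like cells are lowest for every gene.

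H2-D1 had another order. Neutrophil-like cells were among its highest, at 1512 CPM in the EC-Cx43-KO and 1468 CPM in the control library, next to EC-like cells at 1376 CPM in the EC-Cx43-KO and 1613 CPM in the control library. H2-K1 made up 21.7% (exact binomial interval 20.5% to 22.9%) of the classical UMIs of EC-Cx43-KO neutrophil-like cells and 24.7% (23.5% to 26.0%) of those of control neutrophil-like cells. In the other 7 classes its share lay between 40.7% in EC-Cx43-KO dendritic-like cells and 66.8% in control T/NK-like cells. In the neutrophil-like cluster led by Retnlg the share was 20.4% in EC-Cx43-KO and 22.7% in control cells, and in the one led by Hcar2 20.3% in EC-Cx43-KO and 23.7% in control cells. The shallow cluster led by Il1r2 had 29.8% in EC-Cx43-KO and 37.0% in control cells. Platelet-like cells, 49 in the EC-Cx43-KO and 26 in the control library, had a similar share, 19.1% (9.15% to 33.3%) in the EC-Cx43-KO and 24.5% (13.3% to 38.9%) in the control library, from 47 EC-Cx43-KO and 49 control UMIs.

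B2m, whose product every class I heavy chain needs, stood at 2258 CPM in EC-Cx43-KO and 2052 CPM in control monocyte/macrophage-like cells, the highest of the 8 classes in the EC-Cx43-KO library and by the mean of both. T/NK-like cells, not separated from it in both libraries, had 1627 CPM in the EC-Cx43-KO and 2132 CPM in the control library, and EC-like cells 1274 CPM in the EC-Cx43-KO and 1775 CPM in the control library. SMC-like cells were lowest, at 359.8 CPM in the EC-Cx43-KO and 317 CPM in the control library. The spread was narrow, since the highest of the 8 classes stood 6.36-fold above the lowest, against 12.2-fold for H2-K1. B2m and the heavy chains are counted per transcript, 1 UMI each, so that a transcript's length does not enter. In platelet-like cells, which are fragments with little RNA, B2m reached 5372 CPM in the EC-Cx43-KO and 6792 CPM in the control library, while H2-K1 was at 168 CPM in EC-Cx43-KO and 349.8 CPM in control cells. Erythroid markers took 57109 CPM of the EC-Cx43-KO and 5975 CPM of the control platelet-like class, and their part in these levels was not tested.

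Among the non-classical genes, H2-Q6 and H2-Q7, which encode Qa-2 antigens, separated the classes most. H2-Q7 stood at 408 CPM in EC-Cx43-KO and 474 CPM in control T/NK-like cells, above every other class. EC-like cells had 156 CPM in the EC-Cx43-KO and 248 CPM in the control library. B-like cells had 129 CPM in the EC-Cx43-KO and 152 CPM in the control library, so these 2 classes were not separated beyond their intervals in both libraries. Fibroblast-like and SMC-like cells had 0.933 to 2.11 CPM of H2-Q7, and whether this was free RNA was not tested. The T/NK-like class stood 459-fold above the SMC-like class, which rested on 5 UMIs in the EC-Cx43-KO and 4 in the control library. H2-Q6 was highest in EC-like, T/NK-like and B-like cells, whose order was not separated, and 6.20-fold lower in the next class, dendritic-like cells.

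H2-Q4 shared that preference, with 109.7 CPM in EC-Cx43-KO and 129.6 CPM in control EC-like cells, and 107 CPM in EC-Cx43-KO and 118 CPM in control T/NK-like cells. B-like cells followed, not separated from these, and the myeloid and stromal classes had at most 28.9 CPM. H2-T23 differed from the Q genes. It encodes the Qa-1 heavy chain, which offers leader peptides of other class I molecules to the NK receptor CD94/NKG2. It was highest in T/NK-like, dendritic-like and B-like cells, at 147 to 185 CPM in the EC-Cx43-KO and 159 to 173 CPM in the control library, while EC-like cells were sixth of 8, at 72.0 CPM in the EC-Cx43-KO and 88.1 CPM in the control library. Between neighbours in its order, the step from fibroblast-like to SMC-like cells, 4.29-fold, was the only one larger than the intervals in both libraries.

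The non-classical share of heavy chain UMIs puts these levels together. This share sets H2-Q4, H2-Q6, H2-Q7 and H2-T23 against the same genes plus H2-K1 and H2-D1. It leaves out other class I genes, among them H2-Q10, which was abundant in neutrophil-like cells. It was 22.1% in EC-Cx43-KO and 22.05% in control T/NK-like cells, and 20.8% in EC-Cx43-KO and 22.8% in control B-like cells. EC-like cells had 13.1% in the EC-Cx43-KO and 14.8% in the control library, mostly Q genes, while dendritic-like cells had 11.3% in the EC-Cx43-KO and 11.6% in the control library, mostly H2-T23. Neutrophil-like cells had 7.11% (EC-Cx43-KO) and 7.12% (control), and SMC-like cells 6.53% (EC-Cx43-KO) and 5.41% (control). For neutrophil-like cells the low share holds for the counted genes only.

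**Figure D2:**
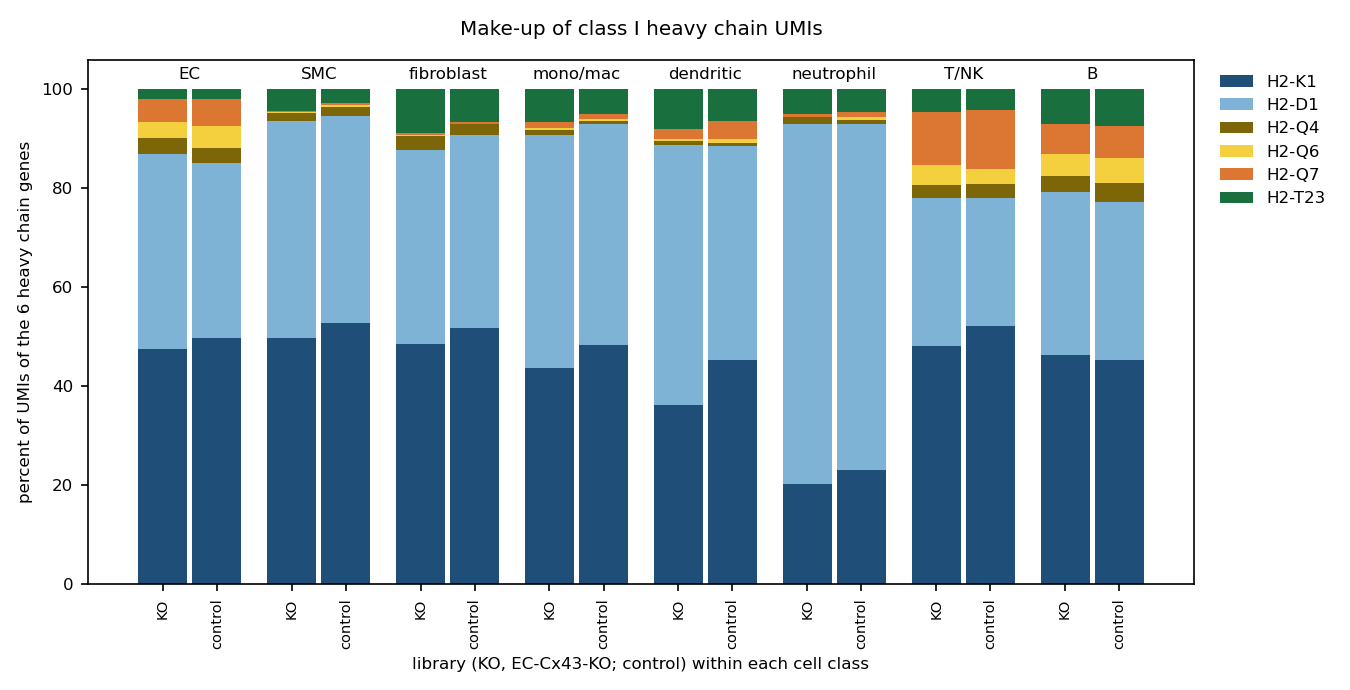
Make-up of the UMIs of the 6 heavy chain genes, in percent, for each class, with the EC-Cx43-KO library left of the control library. Dark and light blue are the classical genes H2-K1 and H2-D1, which swap weight in neutrophil-like cells, and the other colours are the non-classical genes.

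Near-identical heavy chain genes can split or lose reads. Of 411 windows of 90 bases in the last 500 bases of each gene's longest transcript, none of H2-K1, H2-D1, H2-Q7, B2m, Tap1, Psmb8 or Psmb9 occurred in a transcript of another gene, against 9.49% for H2-Q4, 10.9% for H2-Q6 and 13.4% for H2-T23. Some shared windows of H2-Q6 lay in H2-Q4, and some of H2-T23 in the pseudogene H2-T-ps. At 25 bases, H2-Q6 and H2-Q7 shared none of 476 windows, while H2-K1 and H2-D1 shared 8.4% and H2-K1 and H2-Q7 shared 4.2%. Reads from further upstream were not covered by this, so the split between single heavy chain genes is uncertain. The annotation carries 1 haplotype, and whether the mice carry the same one is not given in the sources used here.

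The peptide supply genes were higher in dendritic-like and T/NK-like cells than in EC-like cells in both libraries. Psmb8 and Psmb9 encode the immunoproteasome subunits that replace Psmb5 and Psmb6 products. Psmb8 was highest in dendritic-like cells, at 295 CPM in the EC-Cx43-KO and 173 CPM in the control library, and lowest in SMC-like cells, at 19.6 CPM (EC-Cx43-KO) and 4.19 CPM (control). By the mean of both libraries, Psmb9 spanned 34.4-fold between the same classes and Tap1, a subunit of the transporter, 11.7-fold. The SMC-like level of Psmb9 rested on 22 EC-Cx43-KO and 7 control UMIs. In the control library T/NK-like cells stood above dendritic-like cells, at 103 against 65.8 CPM for Psmb9 and 101 against 84.0 CPM for Tap1. For Tap1 no step between neighbouring classes was larger than the intervals in both libraries. EC-like cells, with Tap1 at 24.1 CPM (EC-Cx43-KO) and 29.5 CPM (control), were sixth of 8 for Tap1 although they were among the top 2 classes for H2-K1.

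Across 22 sums, from 11 groups of cells in 2 libraries, the 10 genes varied together to unequal degrees. These Pearson correlations of log2(CPM + 1) are descriptions, and the points share libraries and depths. The closest pair was Psmb8 with Psmb9 at 0.967, followed by H2-Q6 with H2-Q7 at 0.938, and H2-Q4 with Psmb8 was lowest at 0.388. Among 10823 genes with at least 500 UMIs, and with the members left out of the ranking, H2-K1 was most like Tap2 at 0.968, the partner of Tap1 in the transporter, then Gm4070 at 0.89 and Ptger4 at 0.89. H2-Q7 was most like Tspan13 (0.886), Tap2 (0.885) and Arhgap31 (0.876). B2m was most like Arhgdib (0.893), Arl6ip1 (0.881) and Tap2 (0.867), and Psmb8 was most like Rnaset2a (0.915), Bloc1s2 (0.887) and Sh3bgrl3 (0.884).

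In EC-like cells, the class in which the Cre was meant to act, 9 of the 10 genes had log2 ratios below 0, EC-Cx43-KO over control, and Psmb8 was the exception. The comparison asks how the pathway of these cells stood in the knockout beside the control, over 580 EC-Cx43-KO cells and 477 control cells. H2-Q6 was at 117 CPM in EC-Cx43-KO cells and 209 CPM in control cells, a log2 ratio of -0.83 (-0.99 to -0.67). H2-Q7 was at 156 CPM in EC-Cx43-KO and 248 CPM in control cells, a log2 ratio of -0.66 (-0.81 to -0.52). These 2 were at least 1.5-fold lower (a log2 ratio of 0.58 in size), as were 6.04% of the 11879 genes measured in the class, and 0 of the 10 were as much higher, against 5.35% of genes. A gene counted as measured with at least 20 UMIs in both libraries together.

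The remaining EC-like differences were smaller. B2m was at 1274 CPM in EC-Cx43-KO cells and 1775 CPM in control cells (log2 ratio -0.48, -0.53 to -0.43), and H2-K1 at 1651 CPM in EC-Cx43-KO and 2255 CPM in control cells (-0.45, -0.49 to -0.40). H2-D1 stood at -0.23 (-0.28 to -0.18), H2-Q4 at -0.24 (-0.42 to -0.06) and H2-T23 at -0.29 (-0.52 to -0.07). Psmb9 was at 33.0 CPM in EC-Cx43-KO and 44.5 CPM in control cells (-0.43, -0.76 to -0.10). The intervals of Tap1 (-0.29, -0.68 to 0.10) and Psmb8 (0.12, -0.14 to 0.38) included 0. The median of the 10 was -0.36, and that of all measured genes was -0.06. Thinning cells to 1000 UMIs left out 60 EC-Cx43-KO and 53 control cells with fewer UMIs. In the thinned cells 5 of the 10 were at least 1.5-fold lower, against 10.9% of genes, and 0 higher, against 9.81%.

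The rest of the pathway in EC-like cells was mixed. The counts of this paragraph stand beside 5.35% of all measured genes at least 1.5-fold higher and 6.04% lower. Of 8 peptide loading genes, 0 were 1.5-fold apart and the median was -0.19. The most abundant were the chaperones Calr (754 CPM in EC-Cx43-KO and 776 CPM in control cells), Pdia3 (623 CPM in EC-Cx43-KO and 616 CPM in control cells) and Canx (470.1 CPM in EC-Cx43-KO and 517 CPM in control cells), and the peptidase Lnpep (187 CPM in EC-Cx43-KO and 225 CPM in control cells). Tap2 and Tapbp, chosen after their values were seen, stood at -0.37 (-0.61 to -0.13) and -0.29 (-0.43 to -0.14). The 4 immunoproteasome and activator genes, Psmb10, Psme1, Psme2 and Pomp, had a median of 0.23, all above 0 and none 1.5-fold apart. The interferon response genes went the other way from the heavy chains, with 8 of 9 at least 1.5-fold higher and a median of 1.15. Isg15, a ubiquitin-like protein, was at 66.8 CPM in EC-Cx43-KO and 20.7 CPM in control cells (1.69, 1.34 to 2.06), and Oasl2 at 51.8 CPM in EC-Cx43-KO and 33.9 CPM in control cells (0.61, 0.30 to 0.93). Of 9 regulators measured 7 were above 0, 1 was at least 1.5-fold higher and 0 were lower. Irf2, Irf1 and Irf9 were within 0.10 in size. The higher one was Rfxap (0.63, 0.11 to 1.17), a subunit of the RFX factor of MHC promoters, and Nlrc5, the class I transactivator, had 64 UMIs in EC-Cx43-KO and 88 in control cells (-0.53, -1.02 to -0.05), both chosen after their values were seen.

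Markers of other cells were looked at beside the EC-like values. The 13 dendritic markers summed to 356 CPM in EC-Cx43-KO and 989.6 CPM in control EC-like cells, with 4 of them at 0 in the EC-Cx43-KO and 3 in the control library. The largest part of that sum was MHC class II genes, which the dendritic list holds: Cd74, the invariant chain, was at 182 CPM in EC-Cx43-KO and 657 CPM in control cells, and H2-Aa at 48.0 CPM in EC-Cx43-KO and 112 CPM in control cells. The dendritic markers Xcr1 and Siglech were at 0 in both libraries, and Flt3 had 3 UMIs in the EC-Cx43-KO and 0 in the control library. Clec9a was at 7.27 CPM in EC-Cx43-KO and 4.67 CPM in control cells, and Zbtb46 at 37.3 CPM in EC-Cx43-KO and 42.3 CPM in control cells. The 15 T/NK markers summed to 13.4 CPM in EC-Cx43-KO and 18.0 CPM in control cells, with 8 at 0 in the EC-Cx43-KO and 12 in the control library. The 7 erythroid markers summed to 1481 CPM in EC-Cx43-KO and 604 CPM in control cells. The part of these in the class I differences was not tested.

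**Figure D3:**
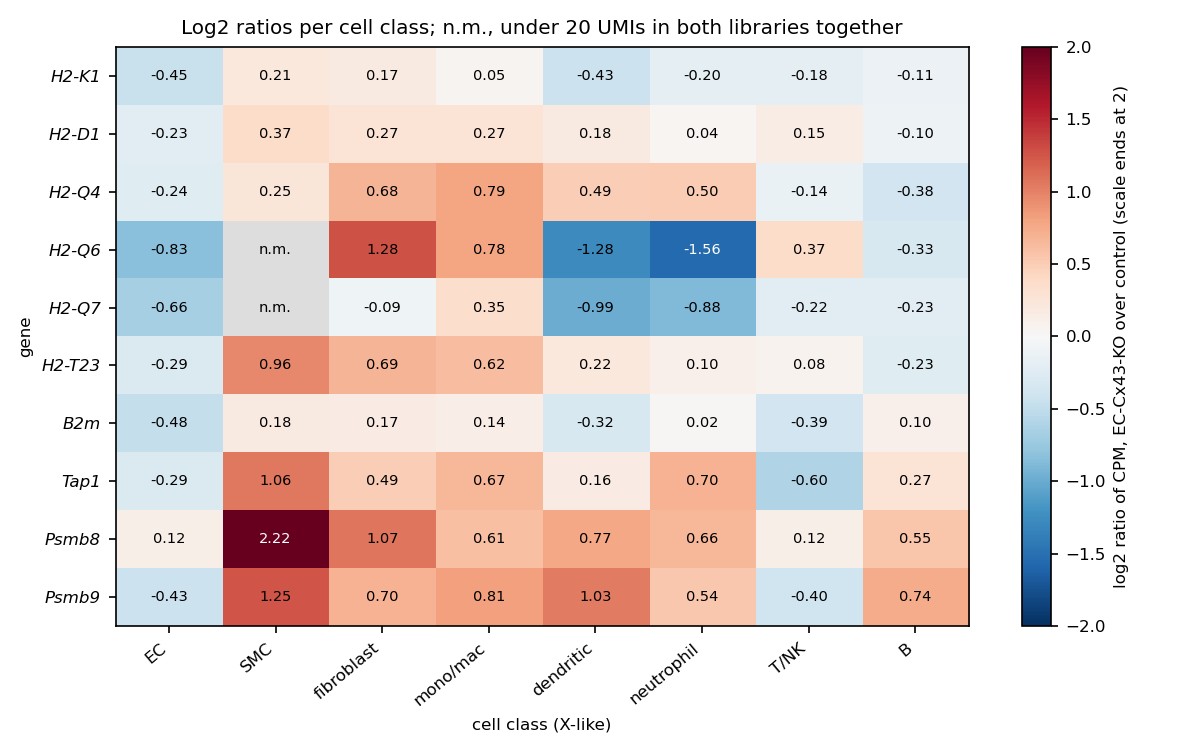
Log2 ratios, EC-Cx43-KO over control, of the 10 genes (rows) in 8 classes (columns), with red for higher and blue for lower in the EC-Cx43-KO library. EC-like cells are blue for 9 of 10 genes, and SMC-like, fibroblast-like and monocyte/macrophage-like cells are red for nearly all; no value has a replicate check.

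The EC-like class was made up of a deep cluster with 434 EC-Cx43-KO and 396 control cells and a shallow cluster led by Fabp4 with 146 EC-Cx43-KO and 81 control cells. In the deep cluster H2-Q6 stood at -0.79, H2-Q7 at -0.64, B2m at -0.50 and H2-K1 at -0.44. The shallow cluster had H2-Q6 at -1.09, H2-Q7 at -0.77 and H2-K1 at -0.51, while H2-Q4 was at 2.32 there, at 101 CPM in EC-Cx43-KO and 20.2 CPM in control cells. Its control cells held only 148802 UMIs of all genes, so this control level of H2-Q4 rested on very few UMIs.

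SMC-like cells had the lowest mean level of the 8 classes for every member, although H2-Q6 was at 1.23 CPM in control SMC-like and 0.49 CPM in control fibroblast-like cells. All 8 measured ratios were above 0. Of 8 members measured, 4 were at least 1.5-fold higher in the EC-Cx43-KO library, as were 5.72% of 11970 genes, and 0 were as much lower, against 4.59%. Psmb8 was at 19.6 CPM in EC-Cx43-KO and 4.19 CPM in control cells, from 105 EC-Cx43-KO and 17 control UMIs (2.22, 1.48 to 3.06). Tap1 was at 10.3 CPM in EC-Cx43-KO and 4.93 CPM in control cells (1.06, 0.30 to 1.87), H2-T23 at 15.3 CPM in EC-Cx43-KO and 7.89 CPM in control cells (0.96, 0.35 to 1.59), and Psmb9 rested on 22 EC-Cx43-KO and 7 control UMIs (1.25, -0.03 to 2.72). The abundant chains were closer to 0, with H2-D1 at 0.37 (0.21 to 0.54), H2-K1 at 0.21 and B2m at 0.18. H2-Q6 and H2-Q7 had 2 to 5 UMIs in each library and were not measured. Thinning cells to 1000 UMIs left out 8 EC-Cx43-KO and 26 control cells with fewer UMIs, and left 3 members measured. Of these 0 were higher, against 10% of genes, and 0 lower, against 10.2%.

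The class held 2 clusters. The one led by Hspb7, Tagln and Rgs4, with 321 EC-Cx43-KO and 206 control cells, had Psmb8 at 2.21, Psmb9 at 1.84, Tap1 at 1.59 and H2-T23 at 1.18. In the one led by Sost, with 229 EC-Cx43-KO and 205 control cells, B2m stood at 0.02, H2-K1 at -0.01 and H2-T23 at -0.45, and Tap1, Psmb8 and Psmb9 were not measured. The interferon response genes summed to 897 CPM in EC-Cx43-KO and 125 CPM in control cells of the Hspb7-led cluster, and to 62.0 CPM in EC-Cx43-KO and 29.2 CPM in control cells of the Sost-led one. Over the whole class 8 of these 9 genes were at least 1.5-fold higher, and Isg15 stood at 135 CPM in EC-Cx43-KO and 18.2 CPM in control cells. Of 9 regulators measured 5 were higher, among them Irf9 at 29.5 CPM in EC-Cx43-KO and 17.7 CPM in control cells (0.73, 0.32 to 1.15). Nlrc5, chosen after its value was seen, had 48 UMIs in EC-Cx43-KO and 5 in control cells. Of 8 peptide loading genes 0 were 1.5-fold apart. Over all genes measured in the class, 5.72% were at least 1.5-fold higher and 4.59% lower.

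In fibroblast-like cells, 1591 in the EC-Cx43-KO and 1380 in the control library, 5 of the 10 genes were at least 1.5-fold higher in the EC-Cx43-KO library, against 5.82% of 14340 genes, and 0 were as much lower, against 5.55%. Psmb8 was at 38.8 CPM in EC-Cx43-KO and 18.5 CPM in control cells (1.07, 0.86 to 1.29). H2-T23 was at 61.4 CPM in EC-Cx43-KO and 38.1 CPM in control cells (0.69, 0.53 to 0.84), H2-Q4 at 19.8 CPM in EC-Cx43-KO and 12.3 CPM in control cells (0.68, 0.41 to 0.96), and Psmb9 at 12.7 CPM in EC-Cx43-KO and 7.82 CPM in control cells (0.70, 0.35 to 1.05). H2-Q6, the fifth, rested on 18 EC-Cx43-KO and 7 control UMIs (1.28, -0.05 to 2.78). H2-D1 (0.27), H2-K1 (0.17) and B2m (0.17) were closer to the median of all measured genes, -0.07. The non-classical share of heavy chain UMIs was 12.3% in EC-Cx43-KO and 9.28% in control cells, 2.99 points apart (2.09 to 3.88).

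Monocyte/macrophage-like cells had 6 of 10 members at least 1.5-fold higher, against 8.5% of 12348 genes, and 0 as much lower, against 4.98%. Psmb9 was at 71.1 CPM in EC-Cx43-KO and 40.5 CPM in control cells (0.81, 0.64 to 0.99). H2-Q4 (0.79), H2-Q6 (0.78), Tap1 (0.67), H2-T23 (0.62) and Psmb8 (0.61) were alike, and H2-K1 (0.05, 0.01 to 0.09) and B2m (0.14, 0.11 to 0.16) were closer to 0. H2-D1 was at 1036 CPM in EC-Cx43-KO and 859 CPM in control cells (0.27). The 9 interferon response genes summed to 2957 CPM in EC-Cx43-KO and 656 CPM in control cells. All 9 had log2 ratios of at least 0.58, with Oasl2 lowest at 0.5801 (1.495-fold).

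These values leaned on 1 cluster. The cluster led by Cxcl10 and Rsad2, itself defined by interferon response genes, held 439 EC-Cx43-KO and 148 control cells and had the highest levels of H2-K1, H2-D1, B2m, Tap1, Psmb8 and Psmb9 in the class, with B2m at 4180.2 CPM in EC-Cx43-KO and 3488 CPM in control cells and Psmb9 at 175 CPM in EC-Cx43-KO and 85.3 CPM in control cells. Without it, an alternative chosen after seeing the data, 1 of the 10 genes was at least 1.5-fold higher, against 8.07% of genes, and 0 lower, against 4.48%. Psmb9 then stood at -0.0040, and H2-K1 (-0.21), B2m (-0.24) and H2-Q7 (-0.20) were below 0. The cluster led by Chil3 held 603 EC-Cx43-KO and 601 control cells. H2-K1 was at -0.33, B2m at -0.25, H2-Q7 at -0.67, H2-Q6 at -0.54, H2-Q4 at -0.225 and Psmb9 at -0.067 there. Psmb8 (0.31), H2-T23 (0.075), Tap1 (0.042) and H2-D1 (0.019) were above 0. The cluster led by Ltc4s held 464 EC-Cx43-KO and 650 control cells. Psmb9 was at -0.55, H2-T23 at -0.46, H2-K1 at -0.37, B2m at -0.37, H2-Q7 at -0.315, H2-Q4 at -0.245 and Tap1 at -0.0325 there. H2-D1 (0.12), Psmb8 (0.076) and H2-Q6 (1.2) were above 0. The cluster led by Lyve1, with 248 EC-Cx43-KO and 89 control cells, had H2-Q4 at 1.4, Psmb9 at 1.18 and H2-T23 at 0.68. H2-K1 (0.143), B2m (0.149) and H2-D1 (0.0293) were closer to 0 there. A further cluster, left unnamed because Ppbp and Pf4 lead it although it carries macrophage markers, had H2-K1 at -0.22, B2m at -0.13 and H2-T23 at 0.54 over 454 EC-Cx43-KO and 752 control cells, with 0 of 9 members 1.5-fold apart, against 4.32% of genes higher and 6.14% lower. The unnamed shallow cluster led by Cacna1d had 1 of 6 members higher, against 12.2% of genes, and 2 lower, against 12.3%, with H2-K1 at 514 CPM in EC-Cx43-KO and 981 CPM in control cells (-0.93). Its erythroid markers summed to 5391 CPM in EC-Cx43-KO and 117 CPM in control cells. The unnamed cluster led by Adgre4 had 0 of 9 higher, against 15% of genes, and 3 lower, against 11.4%, with H2-Q7 at 25.6 CPM in EC-Cx43-KO and 77.9 CPM in control cells (-1.60). Its 13 dendritic markers summed to 1394 CPM in EC-Cx43-KO and 7432 CPM in control cells, with 5 at 0 in each library. The part of these markers in the ratios was not tested.

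Dendritic-like cells split by gene. Of 10 members 2 were at least 1.5-fold higher, against 8.79% of 8241 genes, and 2 as much lower, against 15.7%. Psmb9 was at 135 CPM in EC-Cx43-KO and 65.8 CPM in control cells (1.03, 0.64 to 1.44), and Psmb8 at 295 CPM in EC-Cx43-KO and 173 CPM in control cells (0.77, 0.52 to 1.02). H2-Q7 was lower, at 42.8 CPM in EC-Cx43-KO and 84.9 CPM in control cells (-0.99, -1.48 to -0.51), and H2-Q6 rested on 14 EC-Cx43-KO and 28 control UMIs (-1.28, -2.32 to -0.31). H2-K1 was at 822 CPM in EC-Cx43-KO and 1104 CPM in control cells (-0.43, -0.54 to -0.31) while H2-D1 was at 0.18 (0.07 to 0.29), so that H2-K1 made up 40.7% of classical UMIs in EC-Cx43-KO and 51.0% in control cells. Erythroid markers summed to 4416 CPM in EC-Cx43-KO and 13.9 CPM in control dendritic-like cells. The 15 T/NK markers summed to 173 CPM in EC-Cx43-KO and 299 CPM in control cells, with 9 at 0 in the EC-Cx43-KO and 12 in the control library. The part of either list in these ratios was not tested.

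Neutrophil-like cells, whose median depth was 1647 UMIs in the EC-Cx43-KO and 1831 UMIs in the control library, had 2 members higher, against 9.07% of 8302 genes, and 2 lower, against 10.9%. Tap1 was at 46.9 CPM in EC-Cx43-KO and 28.9 CPM in control cells (0.70, 0.26 to 1.15), and Psmb8 at 47.7 CPM in EC-Cx43-KO and 30.1 CPM in control cells (0.66, 0.23 to 1.11). H2-Q7, from 30 EC-Cx43-KO and 52 control UMIs, was at -0.88 (-1.58 to -0.20), and H2-Q6, from 9 EC-Cx43-KO and 25 control UMIs, at -1.56 (-2.84 to -0.41). For the abundant genes H2-D1 (0.04, -0.02 to 0.11) and B2m (0.02, -0.06 to 0.10) the intervals included 0. The 6 mast cell markers summed to 338 CPM in EC-Cx43-KO and 32.3 CPM in control neutrophil-like cells, and the 7 platelet markers to 238 CPM in EC-Cx43-KO and 141 CPM in control cells, and their part was not tested.

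In T/NK-like cells 0 members were at least 1.5-fold higher, against 10.6% of 6654 genes, and 1 was lower, against 13.1%. That gene was Tap1, from 39 EC-Cx43-KO and 47 control UMIs (-0.60, -1.25 to 0.04), and B2m was at -0.39 (-0.52 to -0.26). The receptor genes for class I were led by Klrd1, which encodes CD94, at 205 CPM in EC-Cx43-KO and 276 CPM in control cells (-0.43, -0.80 to -0.06), then Cd8b1 (-0.22), Klrc2 (-0.43) and Klrc1 (-0.25). Of 6 genes measured on the list of these receptors 1 was at least 1.5-fold higher and 1 lower, both chosen after their values were seen. The lower one was Cd8a (-0.98, -1.58 to -0.39). The higher one was Lilrb4a, from 26 EC-Cx43-KO and 8 control UMIs (1.37, 0.18 to 2.72). Lilrb4a stood at 582 CPM in EC-Cx43-KO and 475 CPM in control monocyte/macrophage-like cells. Whether its UMIs here came from such cells, and whether its product binds class I, was not tested. In B-like cells 1 member was higher, against 10.1% of 5883 genes, and 0 were lower, against 14%. That was Psmb9, from 38 EC-Cx43-KO and 17 control UMIs (0.74, -0.12 to 1.66). Erythroid markers summed to 2288 CPM in EC-Cx43-KO and 47.2 CPM in control B-like cells, and their part was not tested.

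The inducible proteasome subunits were also set against the constitutive ones they replace. Psmb8, Psmb9 and Psmb10 together made up 66.3% of the UMIs of the 3 subunit pairs in EC-Cx43-KO and 69.3% in control T/NK-like cells, 56.8% (EC-Cx43-KO) and 48.2% (control) in dendritic-like cells, and 49.3% (EC-Cx43-KO) and 41.8% (control) in monocyte/macrophage-like cells. EC-like cells had 34.0% in the EC-Cx43-KO and 34.3% in the control library, a difference of -0.33 points (-3.43 to 2.76). SMC-like cells had 12.6% (EC-Cx43-KO) and 7.61% (control), a difference of 5.04 points (2.97 to 7.03), and fibroblast-like cells 26.1% (EC-Cx43-KO) and 21.7% (control), a difference of 4.40 points (2.81 to 5.98). In EC-like cells the pairs went apart, with Psmb9 at 20.8% of its pair in EC-Cx43-KO and 27.0% in control cells, and Psmb10 at 44.7% in EC-Cx43-KO and 36.8% in control cells. Neutrophil-like cells had Psmb9 at 71.2% of its pair in EC-Cx43-KO and 61.7% in control cells, but Psmb10 at 16.7% in EC-Cx43-KO and 19.0% in control cells.

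**Figure D4:**
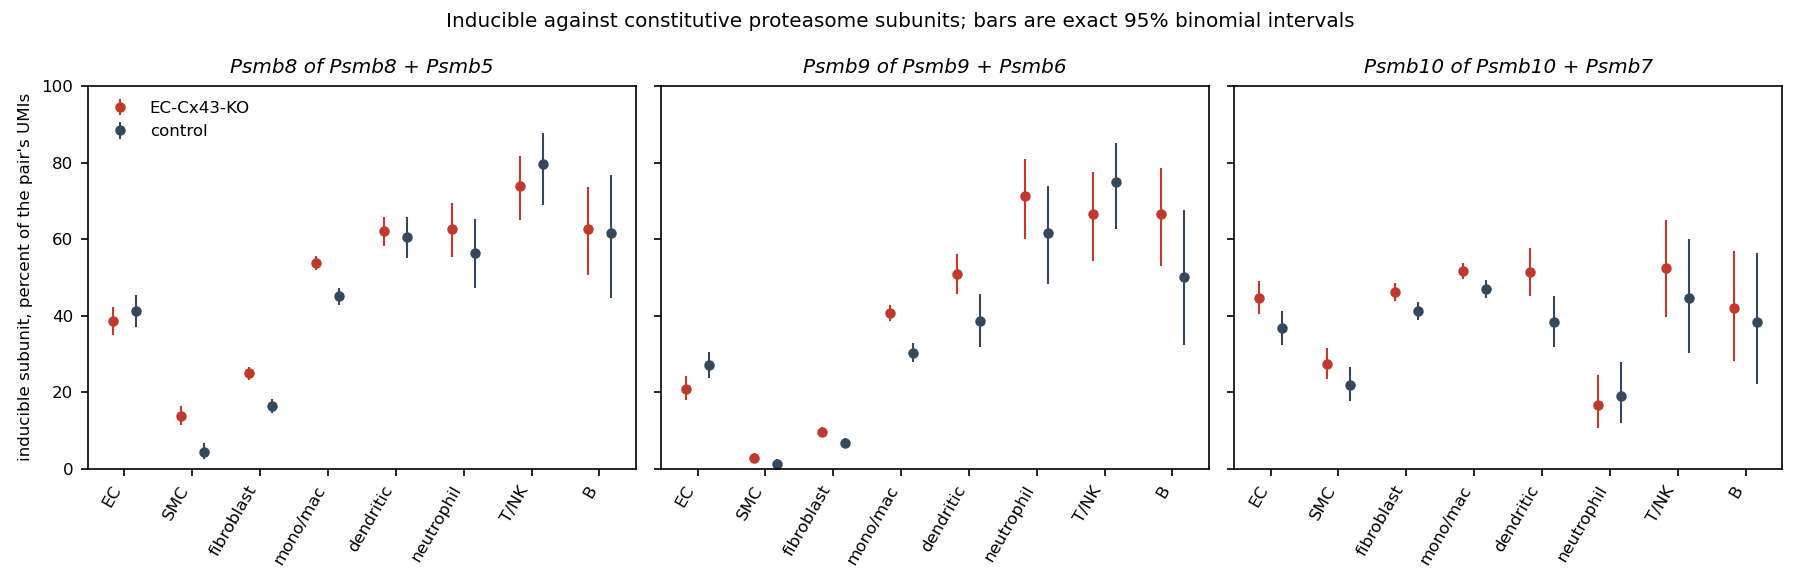
Share of the inducible subunit in the UMIs of each inducible and constitutive pair, in percent, per class, with exact 95% binomial intervals; red is EC-Cx43-KO and dark is control. In SMC-like and fibroblast-like cells the Psmb8 share is higher in the EC-Cx43-KO library beyond the intervals, and in EC-like cells the Psmb9 share is 20.8% (EC-Cx43-KO) against 27.0% (control), with intervals that overlap.

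The libraries also differed in their mix of male and female cells. Cells with RNA of Xist, which is made from the inactive X chromosome of females, and none of 4 Y-linked genes were 37.9% of EC-Cx43-KO and 48.8% of control cells. Cells with Y-linked RNA and no Xist were 27.2% of EC-Cx43-KO and 18.3% of control cells. As far as these UMIs sort the cells, a cell in 1 set comes from other mice than a cell in the other. The number of mice behind each set is not given in the sources used here, and the design text speaks of a single control mouse where the protocol combines arteries.

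Within the Xist set the EC-like differences of the heavy chain genes and B2m were larger. Over 157 EC-Cx43-KO and 218 control cells, H2-Q6 was at 122 CPM in EC-Cx43-KO and 241 CPM in control cells (-0.98, -1.23 to -0.74), H2-Q7 at 152 CPM in EC-Cx43-KO and 294 CPM in control cells (-0.95, -1.17 to -0.73) and H2-K1 at 1592 CPM in EC-Cx43-KO and 2388 CPM in control cells (-0.59, -0.66 to -0.52). The median of the 10 was -0.48, with 4 members at least 1.5-fold lower, against 10.4% of genes, and 0 higher, against 5.22%. In the Y-linked set, with 210 EC-Cx43-KO and 101 control cells, H2-K1 was at 1749 CPM in EC-Cx43-KO and 1674 CPM in control cells (0.06, -0.02 to 0.15), H2-Q7 at 0.28 (-0.02 to 0.58) and H2-Q6 at -0.28 (-0.59 to 0.03). B2m stayed lower there, at 1230.4 CPM in EC-Cx43-KO and 1444 CPM in control cells (-0.23, -0.33 to -0.14). The median was -0.05, with 0 members 1.5-fold apart, against 8.37% of genes higher and 8.19% lower.

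In fibroblast-like and monocyte/macrophage-like cells the medians of the sets had opposite signs. In fibroblast-like cells of the Xist set, 7 of 9 members measured were at least 1.5-fold higher, against 5.38% of genes, and 0 lower, against 7.85%, with a median of 1.28, and H2-Q4 was at 30.8 CPM in EC-Cx43-KO and 8.29 CPM in control cells (1.89, 1.48 to 2.33). In the Y-linked set of the same class 0 were higher, against 5.31%, and 1 lower, against 6.53%, the median was -0.16, and B2m was at 424 CPM in EC-Cx43-KO and 545 CPM in control cells (-0.36, -0.44 to -0.29). In monocyte/macrophage-like cells the median was 1.03 in the Xist set, with 6 members higher, against 7.52% of genes, and 0 lower, against 7.3%. In the Y-linked set it was -0.55, with 0 higher, against 8.89%, and 5 lower, against 6.8%. H2-T23 was at 1.20 (1.03 to 1.37) in the Xist set and at -0.64 (-0.85 to -0.42) in the Y-linked set. In SMC-like cells of the Xist set 5 of 7 members were higher, against 8.22%, and 0 lower, against 7.46%, and in the Y-linked set 0 of 4 were higher, against 7.92%, and 0 lower, against 8.06%. Psmb8 was at 35.4 CPM in EC-Cx43-KO and 3.43 CPM in control cells of the Xist set, and at 4.46 CPM in EC-Cx43-KO and 6.69 CPM in control cells of the Y-linked set, where it was under the 20 UMIs set for a ratio.

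The dendritic-like, T/NK-like and B-like classes held few cells in each set. The neutrophil-like Xist set held 158 EC-Cx43-KO cells (median 2301 UMIs) and 154 control cells (median 2309 UMIs). Its Y-linked set held 170 EC-Cx43-KO cells (median 2082.5 UMIs) and 101 control cells (median 2243 UMIs). Dendritic-like cells had 4 members higher (9.05% of genes) and 1 lower (16.8%) in the Xist set, and 1 higher (16.7%) and 3 lower (23.3%) in the Y-linked set. In neutrophil-like cells these were 1 higher (12.8%) and 0 lower (17%) of 5 measured, then 0 higher (14.3%) and 0 lower (14.3%) of 6. In T/NK-like cells 0 were higher (12.7%) and 2 lower (15.6%) in the Xist set, and 0 higher (17.2%) and 1 lower (18.7%) in the Y-linked set. B-like cells had 2 higher (12.8%) and 0 lower (15.4%), then 1 higher (14.7%) and 2 lower (21.2%).

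The interferon response genes were summed in each set as well. The sum in the Xist set was 361 CPM in EC-Cx43-KO and 111 CPM in control EC-like cells, 956 CPM (EC-Cx43-KO) against 67.9 CPM (control) in SMC-like cells, 1401 CPM (EC-Cx43-KO) against 206 CPM (control) in the fibroblast-like class, and 3817 CPM (EC-Cx43-KO) against 465 CPM (control) in the monocyte/macrophage-like class. In the Y-linked set it was 119.7 CPM in EC-Cx43-KO and 108 CPM in control EC-like cells, 129 CPM (EC-Cx43-KO) against 77.4 CPM (control) in SMC-like cells, 268 CPM (EC-Cx43-KO) against 398 CPM (control) in the fibroblast-like class, and 1018 CPM (EC-Cx43-KO) against 1065 CPM (control) in the monocyte/macrophage-like class. With 1 library per group, genotype and animal cannot be told apart in either set.

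**Figure D5:**
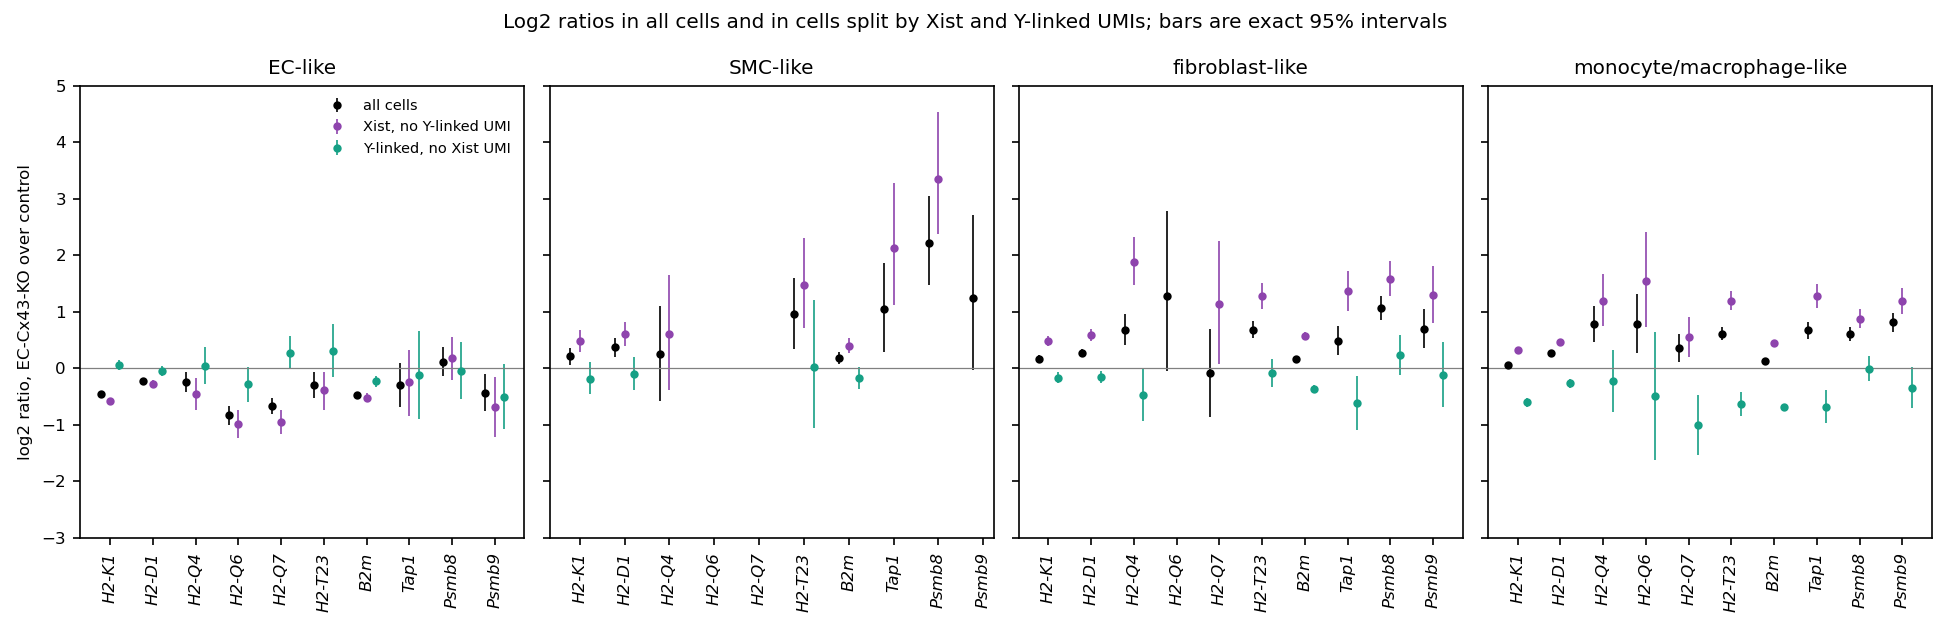
Log2 ratios of the 10 genes, EC-Cx43-KO over control, in all cells of 4 classes (black), in cells with Xist and no Y-linked UMI (purple) and in cells with Y-linked and no Xist UMI (green), with exact 95% intervals; genes under 20 UMIs have no point. In fibroblast-like and monocyte/macrophage-like cells the purple points lie above 0 and most green points below, and in EC-like cells the purple points of H2-K1, H2-Q6 and H2-Q7 lie below the green ones.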

How the data were processed

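The deposited matrices hold UMI counts of each gene in each called cell, made with Cell Ranger 8.0.1 per the file headers. Besides it, STAR and the mm10 build appear in the submitters' processing notes, where no version of STAR is given. Every barcode had at least 501 UMIs. Barcodes needed 300 genes or more and no more than 15% mitochondrial UMIs, and 476 EC-Cx43-KO and 363 control cells nearest to simulated doublets were removed, at an assumed rate of 0.008 per 1000 cells. The 2000 most variable genes without Gja1, 30 principal components, 20 neighbours and Leiden clustering at resolution 1.0 gave 24 clusters, named X-like from marker lists with at least 3 markers detected. UMIs of each class were added up in each library, scaled to CPM, and given exact Poisson intervals. Log2 ratios are EC-Cx43-KO over control with exact conditional binomial intervals, and a library with fewer than 3 UMIs took 3. Shares have Clopper-Pearson intervals and their differences Newcombe intervals. No test between groups was possible with 1 library each. The 10 members, all lists and the splits were chosen with earlier results of these data known. All members are named, and up to 4 genes of each other list with the most UMIs in a class, apart from those said to be chosen after their values were seen. Mx1 and H2-T10 of the lists were not matched by symbol. Not every gene of the lists is reported here. Positions are from GENCODE on GRCm38. The ratio step was tested on simulated data. Alternatives covered the cell filters, doublets, clustering, scaling, free RNA, depth and the splits. The tools were Python 3.11.15 with leidenalg 0.10.2 and igraph 0.11.9 for clustering, SciPy 1.17.1 for intervals, scikit-learn 1.9.0, pandas 2.3.3, NumPy 2.4.6 and matplotlib 3.10.9.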

Additional observations from a re-analysis of the deposited data

Results flagged for a closer look

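H2-Q6 had ratios of opposite direction in different classes. Its log2 ratio, EC-Cx43-KO over control, was -0.83 in EC-like, -1.28 in dendritic-like and -1.56 in neutrophil-like cells, and 1.28 in fibroblast-like cells, where it rested on 18 EC-Cx43-KO and 7 control UMIs. Tap1 was at 1.06 in SMC-like cells and at -0.60 in T/NK-like cells. These differences between classes were not tested, since each group had 1 library.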

How the results depend on the processing

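No paired analysis was possible because each group had 1 library. Of 1066 alternative log2 ratios of members, 903 stayed within the main interval, and 67 had the opposite sign, 33 of them among the 65 ratios of cells with Y-linked and no Xist UMI. Of the 67, 13 were ratios that had been at least 1.5-fold and 54 were smaller ones. In the Y-linked set the ratios of at least 1.5-fold that changed sign were H2-Q7 in EC-like cells (0.28); H2-Q4 (-0.47), H2-T23 (-0.087) and Psmb9 (-0.12) in fibroblast-like cells; H2-Q4 (-0.23), H2-Q6 (-0.50), H2-T23 (-0.64), Tap1 (-0.68), Psmb8 (-0.0052) and Psmb9 (-0.34) in monocyte/macrophage-like cells; and Tap1 (-0.18) in neutrophil-like cells. H2-Q6 in fibroblast-like cells was -0.74 from mean CPM over single cells, and Psmb9 in monocyte/macrophage-like cells was -0.0040 without the Cxcl10-led cluster, an alternative chosen after seeing the data. Among the smaller ratios, the Y-linked set had H2-Q7 (-0.997), B2m (-0.68), H2-K1 (-0.60) and H2-D1 (-0.27) below 0 in monocyte/macrophage-like cells, and Tap1 (-0.61), B2m (-0.36), H2-K1 (-0.16) and H2-D1 (-0.16) in fibroblast-like cells.

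The difference in non-classical share, EC-Cx43-KO minus control in points, was -1.77 in EC-like cells, but -2.78 in the Xist set, 0.40 in the Y-linked set and -3.06 after thinning. It was -1.15 in SMC-like cells of the Y-linked set. In fibroblast-like cells it was 0.96 by mean single-cell CPM, 6.04 in the Xist set and -0.34 in the Y-linked set. In monocyte/macrophage-like cells these were 3.04, 3.45 and -1.12, and 1.02 without the Cxcl10-led cluster. In dendritic-like cells it was 1.59 in the Xist set, -2.06 in the Y-linked set and -4.84 after thinning, and in T/NK-like cells 3.03 after thinning. The difference in immunoproteasome share was -6.55 in EC-like cells after thinning. In SMC-like cells it was 2.63 by mean single-cell CPM, 11.3 in the Xist and -4.17 in the Y-linked set. In fibroblast-like cells it was 9.77 and -4.30 in these sets. In monocyte/macrophage-like cells it was 11.5 and -1.38 in them, 9.37 with at least 500 genes per cell and -0.47 without the Cxcl10-led cluster. In dendritic-like cells it was 14.7 and 3.19, and in neutrophil-like cells 17.5 in the Xist set.

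Counts of members at least 1.5-fold higher moved as follows. SMC-like cells had 2 with at least 100 UMIs, 0 in the Y-linked set and 0 after thinning. Fibroblast-like cells had 2 by mean single-cell CPM, 0 in the Y-linked set and 3 after thinning. Monocyte/macrophage-like cells had 0 in the Y-linked set and 1 without the Cxcl10-led cluster. Dendritic-like cells had 4 in the Xist set, 1 in the Y-linked set and 1 after thinning. Neutrophil-like cells had 1 with doublets kept, 4 under median-of-ratios scaling, 1 in the Xist set, 0 in the Y-linked set and 1 after thinning. T/NK-like cells had 1 after thinning. B-like cells had 2 under median-of-ratios scaling, 0 by mean single-cell CPM, 0 with at least 100 UMIs and 2 in the Xist set. Counts of members at least 1.5-fold lower moved too. EC-like cells had 4 in the Xist set, 0 in the Y-linked set and 5 after thinning. Fibroblast-like cells had 2 by mean single-cell CPM and 1 in the Y-linked set, and monocyte/macrophage-like cells 5 in the Y-linked set. Dendritic-like cells had 1 with at least 100 UMIs, 1 in the Xist set and 1 after thinning. Neutrophil-like cells had 0 with at least 100 UMIs, 0 in the Xist set, 0 in the Y-linked set, 1 after thinning and 1 without their shallow cluster. T/NK-like cells had 0 under median-of-ratios scaling, 2 by mean single-cell CPM, 0 with at least 100 UMIs and 2 in the Xist set. B-like cells had 2 in the Y-linked set and 2 after thinning. In the settings of these counts, 2.01% to 16.7% of all genes were higher and 4.93% to 21.2% lower. Where no value shows it, the cause was not tested. Thinning and the limit of 100 UMIs measure fewer members by construction.

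Depth limits the low genes: H2-Q6 and H2-Q7 could not be measured in SMC-like cells, and B-like and T/NK-like cells gave wide intervals for Tap1 and Psmb9.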

Other observations

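Of 8 other class I and class I-like genes measured in monocyte/macrophage-like cells 1 was at least 1.5-fold higher, against 8.5% of all genes, and 2 lower, against 4.98%. The lower ones were Cd1d1, from 23 EC-Cx43-KO and 38 control UMIs, and Mr1, from 13 EC-Cx43-KO and 18 control UMIs. Of 4 in neutrophil-like cells 2 were higher, against 9.07%, and of 5 in SMC-like cells 1 was higher, against 5.72%. Of 5 in EC-like cells 0 were 1.5-fold apart, against 5.35% of genes higher and 6.04% lower. H2-T22 was at 29.7 CPM in EC-Cx43-KO and 15.8 CPM in control SMC-like cells (log2 ratio 0.91, 0.48 to 1.35), at 0.45 (0.28 to 0.62) in fibroblast-like and 0.51 (0.31 to 0.71) in monocyte/macrophage-like cells, but at -0.45 (-0.75 to -0.15) in EC-like cells. H2-Q10, known in mouse as a secreted class I chain made by liver, was at 313 CPM in EC-Cx43-KO and 294 CPM in control neutrophil-like cells, against 0.60 CPM (EC-Cx43-KO) and 0.85 CPM (control) in fibroblast-like cells and 1.32 CPM (EC-Cx43-KO) and 1.11 CPM (control) in monocyte/macrophage-like cells. H2-Q10 was not counted in the non-classical share of heavy chain UMIs. Cd1d1, Mr1, H2-T22 and H2-Q10 were looked at after their values were seen. The thymocyte-like cells, 56 in the EC-Cx43-KO and 46 in the control library, had low H2-K1, at 234 CPM (EC-Cx43-KO) and 176 CPM (control), and low H2-D1, at 124 CPM (EC-Cx43-KO) and 54.9 CPM (control).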
